A study of Mus musculus with 38 samples.

Results

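The genes described here encode the nuclear subunits of mitochondrial complex I (NADH:ubiquinone oxidoreductase), taken as every protein-coding mouse gene whose symbol starts with Nduf followed by a, b, c, s or v and a number, together with Ndufab1. The rule gave 38 of 22375 genes with coding counts. Of these, 36 are subunits of complex I, 7 of them core subunits (such as Ndufs1, Ndufs7, Ndufv1 and Ndufv2) and 29 accessory. The remaining pair are Ndufa4, which is now assigned to complex IV, and its relative Ndufa4l2, which is not part of complex I, and both were kept.

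Complex I is the entry point of the respiratory chain: it takes electrons from NADH, passes them through a flavin and a row of iron-sulfur clusters to ubiquinone, and pumps protons across the inner mitochondrial membrane. The NADH-oxidizing N module and the ubiquinone-reducing Q module form a matrix arm built from nuclear-encoded core subunits, while the core of the proton-pumping membrane arm is encoded by mitochondrial DNA. Accessory subunits surround this core and are needed for its assembly and stability. All nuclear-encoded subunits are made by cytosolic ribosomes and imported, and neurons depend heavily on the chain for ATP at synapses.

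Ribosome footprints of these genes were measured by PL-Ribo-seq, which combines proximity labelling with ribosome profiling, in primary cortical neurons cultured from mouse embryos without any named mutant allele. Neurons carried a doxycycline-inducible lentivirus with TurboID-PSD95, a biotin ligase directed to dendrites by elements of the PSD95 transcript, or Pan-TurboID, the ligase without a localization signal; each sample pooled culture dishes and gave an input library and a streptavidin pulldown library. All 38 libraries came from neurons given cycloheximide for 2 min and biotin for 30 min according to the labels. For DHPG, the paper instead gives 20 min of biotinylation. The KCl experiment had 24 libraries, 3 for each fraction of TurboID-PSD95 and Pan-TurboID neurons, resting or depolarized with 55 mM KCl for 1 h after silencing with tetrodotoxin and DL-AP5. The DHPG experiment had 6 TurboID-PSD95 libraries (3 inputs, 3 pulldowns) after 10 min of DHPG at 100 µM, which activates metabotropic glutamate receptors of group I. The knockdown experiment had 8 TurboID-PSD95 libraries, 2 for each fraction of resting and KCl-depolarized neurons, after 72 h with 20 nM siRNA against the initiation factor eIF4G2. DHPG and knockdown libraries had no matched resting or non-targeting controls analysed here, so that stimulus or knockdown and experiment cannot be told apart.

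Library totals ran from 5906281 to 35643247 counts, and the 38 genes together had 6590 to 75373 coding counts per library. Dlg4, which encodes PSD95, averaged 1994 CPM (counts scaled to the normalized library size) in resting TurboID-PSD95 pulldowns and 43.7 CPM in resting Pan-TurboID pulldowns. In resting inputs it averaged 148 CPM with TurboID-PSD95 and 50.7 CPM with Pan-TurboID. In the depolarized TurboID-PSD95 pulldowns it ran from 353 CPM (replicate 1) to 5098 CPM. Per the study's methods, the TurboID-PSD95 construct itself carries PSD95 sequence cloned from rat. Dlg4 counts may thus include footprints of the bait, and they are given only to check the labels. Eif4g2 averaged 269 CPM in resting knockdown inputs against 530 CPM in resting TurboID-PSD95 inputs. Summed over its list of 6 genes, the neuronal marker level was 5556 to 10332 CPM in inputs, the astrocyte marker level 221 to 1134 CPM over 6 genes, the oligodendrocyte lineage level 38.4 to 470 CPM over 7 genes and the microglial level 0.688 to 18.9 CPM over 6 genes, with no listed marker at 0 in all libraries. Replicate 2 of the depolarized TurboID-PSD95 pulldowns stood apart from its group in the distribution of footprints along the coding sequence (CDS), and the tests that use it are given with and without it or replicate number 2. Fewer ribosomes on an mRNA, less of the mRNA and fewer cells holding it cannot be told apart in these libraries, because no RNA level of the same samples was used here.

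The start regions of these genes are shown first, because the footprint counts were assigned by the 5′ end of each footprint without an offset, which puts ribosomes waiting at the start codon into the 5′ untranslated region (UTR), and because many of these mRNAs share a start context. The following sequences (mouse assembly GRCm38, mm10; mRNA strand, 5′ to 3′) run from 12 nt before the start codon to 15 nt after it, with the start codon in capitals. The first 4 contain AAGATGGC around the start codon and the last 3 do not.
Ndufa9: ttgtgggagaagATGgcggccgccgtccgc
Ndufa6: ttcctcggcaagATGgcggccgcggccacc
Ndufs6: gtcaccggcaagATGgcggcggtgctgacc
Ndufs4: gcctacaggaagATGgcggcggtctcaatg
Ndufv1: ctggctcccgcgATGctagcggcacggcat
Ndufv2: gcgtaccccgccATGttctccttggcgctg
Ndufa1: aacggtgcggagATGtggttcgagattctc
They lie at chr6:126849095-126849124 (Ndufa9), chr15:82354211-82354240 (Ndufa6), chr13:73328429-73328458 (Ndufs6), chr13:114388039-114388068 (Ndufs4), chr19:4012605-4012634 (Ndufv1), chr17:66101448-66101477 (Ndufv2) and chrX:37191073-37191102 (Ndufa1), all on the minus strand, and each spans the end of the 5′ UTR and the start of the CDS.

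The letters AAGATGGC, searched on the mRNA strand with ATG at the annotated start codon, were present in 11 of the 38 genes (28.9%) and in 478 of 20464 other genes (2.34%). They included Ndufa2, Ndufa3, Ndufa6, Ndufa9, Ndufb8, Ndufs4, Ndufs6 and Ndufs7. The letters ATGGCG, which overlap the first motif, were at the start of 18 (47.4%), against 7.25%. These letters form the core of the translation initiator of short 5′ UTRs (TISU), an element known from mRNAs with very short 5′ UTRs that often encode mitochondrial proteins; the match is a description of the sequence only. The 5′ UTRs of the 38 genes ran from 13 nt (Ndufa9) to 775 nt (Ndufa13), with a median of 95 nt against 175 nt for other genes.

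The genes are short. Their CDSs ran from 213 nt (Ndufa1, a membrane anchor of the complex) to 2184 nt (Ndufs1, the largest core subunit, which carries iron-sulfur clusters of the N module). The median was 424.5 nt against 1101 nt for other genes; 28 were under 600 nt, 4 were of 600 nt to under 1000 nt and 6 (among them Ndufa10, Ndufa9, Ndufv1, Ndufv3 and Ndufs1) of 1000 nt or more. The CDSs of 8 genes (Ndufa12, Ndufab1, Ndufb11, Ndufb3, Ndufb4, Ndufs3, Ndufs5 and Ndufs6) have copies of at least 95% identity elsewhere in the genome over more than 50% of their length. How reads that align in several places were counted is not given in the sources used here, so the levels of these 8 are uncertain.

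All 38 genes passed the filter on low counts in every fit of CDS counts, and 36 had counts in every library. Per kilobase of CDS, the highest levels in the 6 resting inputs were those of Ndufb8, a membrane-arm accessory subunit, at 839 ± 121 CPM per kb (SD, n = 6), and Ndufa4, at 837 ± 113 CPM per kb. These neighbours in the order differed by less than their spread. The lowest were Ndufb4, one of the genes with copies, at 19.8 ± 7.99 CPM per kb, and Ndufa4l2, at 11.4 ± 6.69 CPM per kb. The core subunit Ndufs1 ranked 36 of 38, at 80.3 ± 10.2 CPM per kb, and the core subunit Ndufv1, which binds NADH and the flavin, ranked 32, at 140 ± 9.14 CPM per kb.

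To ask whether footprints of these mRNAs were more or less abundant near dendritic TurboID-PSD95, the resting TurboID-PSD95 pulldowns were set against the mean of both resting inputs. Of the 38 genes, 28 were lower and 2 higher in the pulldowns at a false discovery rate (FDR) of 0.05, with a median log2 fold change of -0.97. Of all 13005 genes tested, 16.4% were lower and 14.7% higher, with a median of -0.04. The 28 lower genes were 24 accessory subunits, 3 core subunits (Ndufs3, Ndufs8 and Ndufv2) and Ndufa4. The 2 higher were Ndufv1 and Ndufa9.

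Ndufv1 had 257, 287 and 362 CPM in the 3 resting TurboID-PSD95 pulldowns, 191, 186 and 196 CPM in their inputs and 220, 187 and 188 CPM in the Pan-TurboID inputs. All pulldowns lay above all inputs, and the log2 fold change was 0.58 ± 0.159 (SE, adjusted p = 0.00853). Ndufa9, an accessory subunit at the junction of the matrix and membrane arms, had 228, 256 and 264 CPM in pulldowns against 176, 154 and 163 CPM and 172, 178 and 172 CPM in inputs. These groups did not overlap either, with a log2 fold change of 0.51 ± 0.141 (adjusted p = 0.00945).

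The most negative fold change was that of Ndufa2, an N-module accessory subunit with a thioredoxin-like fold. It had 66, 58.9 and 47.7 CPM in pulldowns, against 128, 165 and 141 CPM in TurboID-PSD95 inputs and 150, 164 and 138 CPM in Pan-TurboID inputs. No pulldown reached an input, and the log2 fold change was -1.41 ± 0.264 (adjusted p = 0.000906). Ndufa12, an accessory subunit related to the assembly factor Ndufaf2 and one of the genes with a copy, had 48.4, 53 and 30.7 CPM in pulldowns and 92.8 to 116 CPM in the 6 inputs, without overlap (log2 fold change -1.23 ± 0.219, adjusted p = 0.000685).

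The core subunits did not move together. Ndufv2, which holds an iron-sulfur cluster beside Ndufv1 in the N module, had 168, 193 and 159 CPM in resting TurboID-PSD95 pulldowns, 309, 385 and 365 CPM in their inputs and 314, 373 and 474 CPM in the Pan-TurboID inputs. It was lower in each pulldown than in each input, by a log2 fold change of -1.14 ± 0.204 (adjusted p = 0.000685), where its partner Ndufv1 was higher. Ndufs8, which carries a pair of clusters of the Q module, was lower by -0.92 ± 0.189 (adjusted p = 0.00157) and Ndufs3, a scaffold of the Q module, by -0.58 ± 0.165 (adjusted p = 0.0106). Ndufs7, which holds the last cluster before ubiquinone, had 106, 102 and 127 CPM in pulldowns and 74.2 to 123 CPM in inputs, and these groups overlapped (log2 fold change -0.01 ± 0.174, adjusted p = 0.965). Ndufs1 had 241, 267 and 326 CPM in pulldowns and 144 to 201 CPM in inputs; the groups did not overlap, but the log2 fold change of 0.61 ± 0.242 did not pass the FDR (adjusted p = 0.0543).

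**Figure D1:**
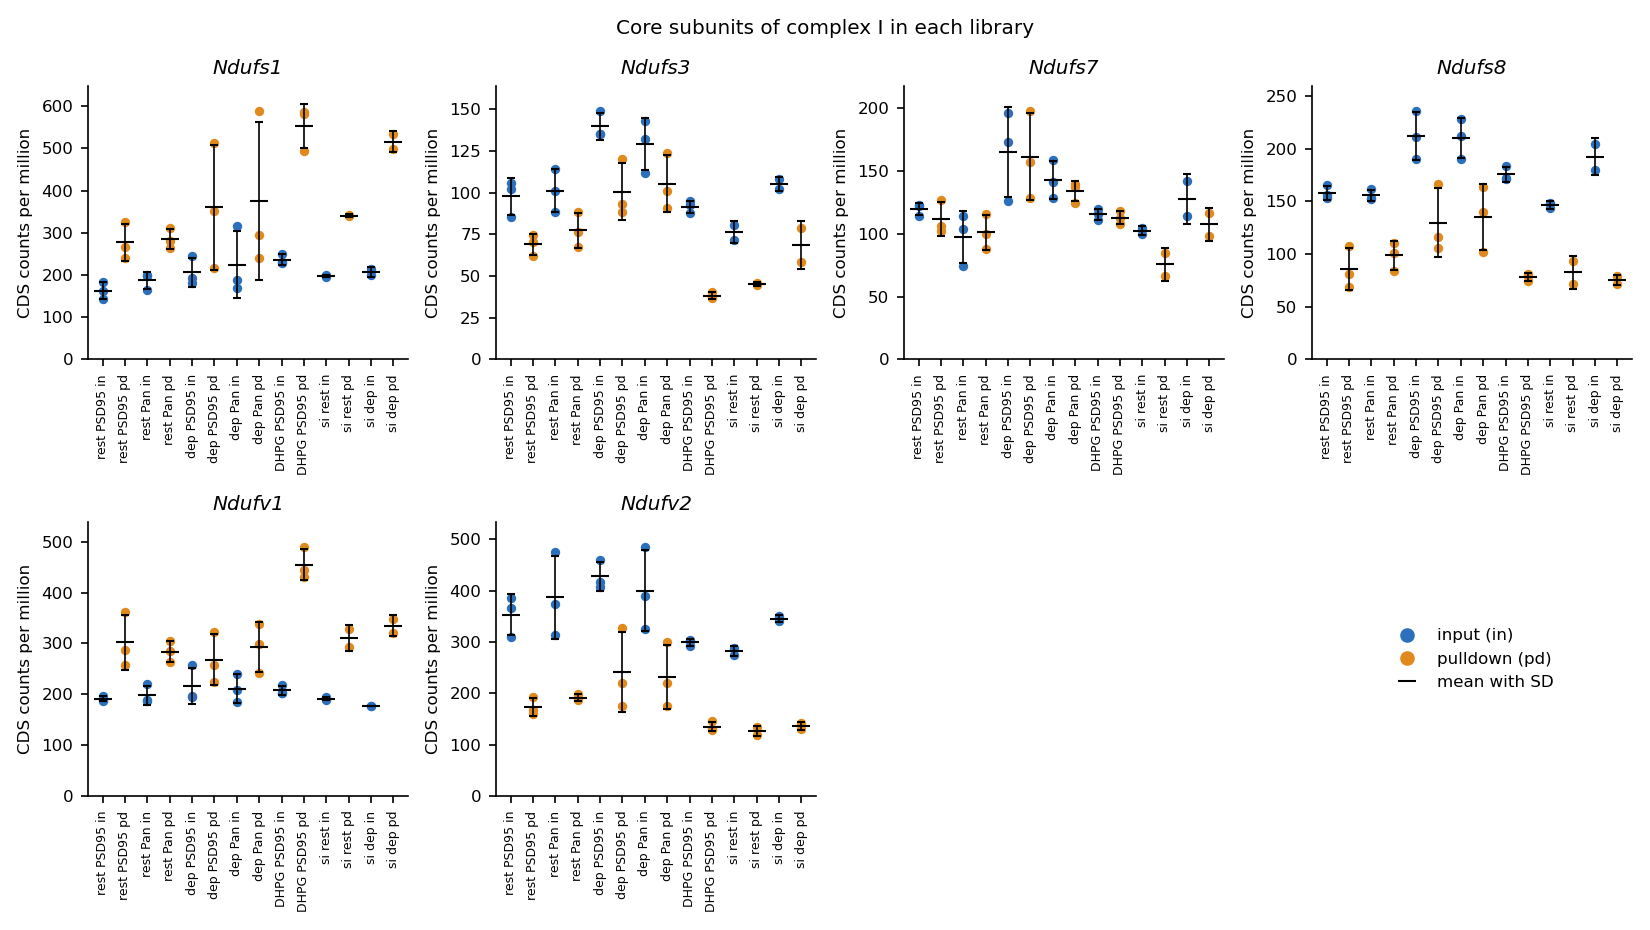
CPM over the CDS (y axis, from 0) of 6 core subunits in each library of the 14 groups (x axis; PSD95, TurboID-PSD95; Pan, Pan-TurboID; dep, depolarized; si, eIF4G2 siRNA); points are libraries, blue for inputs and orange for pulldowns, and bars give the mean with SD. Ndufs1 and Ndufv1 lie higher in resting pulldowns than in resting inputs, while Ndufs8 and Ndufv2 lie lower.

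Fold changes of the 38 genes went with CDS length. Across the 38 genes, which share libraries and are no independent replicates, Spearman's rho between CDS length and the log2 fold change was 0.60, and across all genes tested it was 0.52. For each of the 38, the 200 other tested genes nearest in CDS length were taken for comparison. The median of their medians was -1.01, next to -0.97 for the Nduf genes, and 38.2% of the length neighbours were lower, on average, and 3.54% higher. The Nduf genes lay above their neighbours' median in 20 cases and below it in 18. When the trend with CDS length was removed from the counts before the test, 2 of the 38 were higher and 3 lower, with a median of -0.07, where 10.2% of all genes were higher and 9.67% lower in that fit. The 5 were Ndufv1 (0.53, adjusted p = 0.017), Ndufa9 (0.58, adjusted p = 0.0075), Ndufv2 (-0.73, adjusted p = 0.0018), Ndufb8 (-0.56, adjusted p = 0.0126) and Ndufv3 (-1.06, adjusted p = 0.00313). Without replicate 3, none of the 38 genes was called by the main test (median -0.85), and without replicate 2, 22 were lower and none higher (median -1.01). Here and below, the share of all genes called with a replicate left out is not given. Such counts therefore cannot be set against that share.

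**Figure D2:**
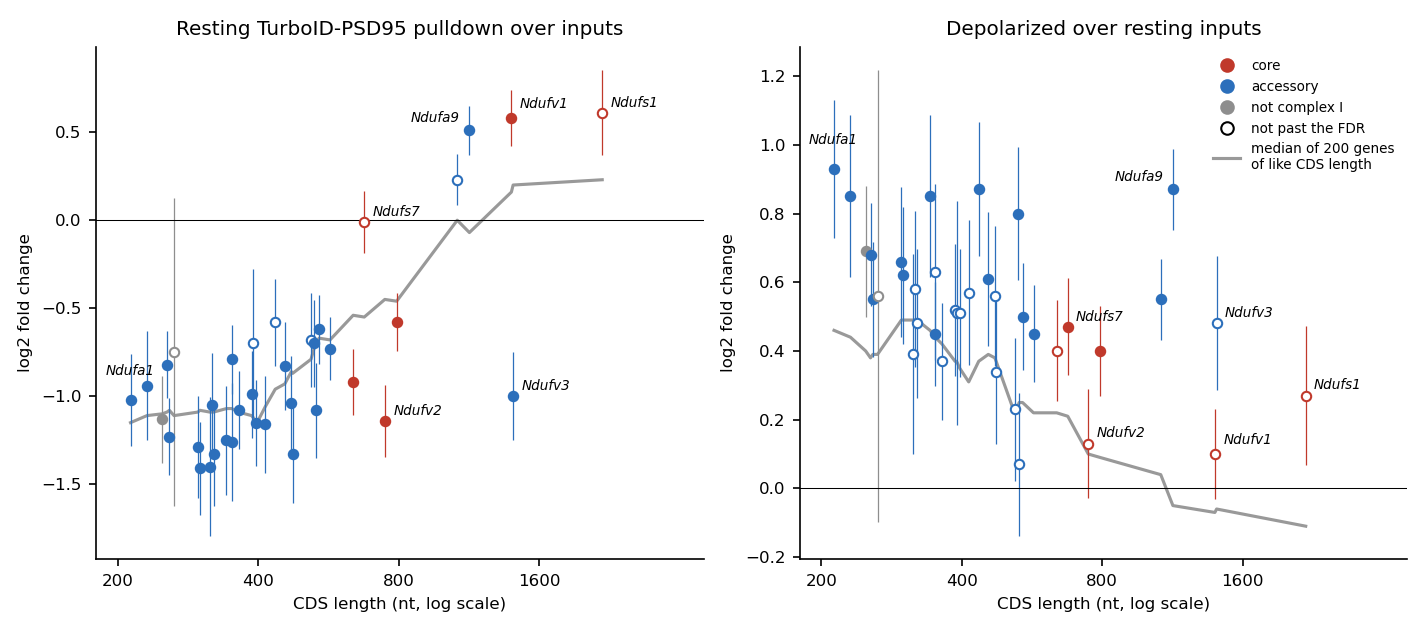
Log2 fold change (y axis; points with SE bars) of 37 Nduf genes against its CDS length (x axis, log scale), for resting TurboID-PSD95 pulldowns over inputs (left) and depolarized over resting inputs (right); open points did not pass the FDR and the grey line joins the medians of the 200 genes nearest in length. Genes under 600 nt lie near the grey line on the left, Ndufv2 and Ndufv3 lie below it, and on the right most genes lie above it.

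Ndufv3, an N-module subunit that occurs as a long and a short form, was the gene farthest from its length neighbours. It was lower in resting TurboID-PSD95 pulldowns by -1.0 ± 0.251 (adjusted p = 0.00499), while its 200 neighbours had a median of 0.20. Its annotated CDS of 1407 nt contains a segment of 1092 nt that held 8.25% of its CDS counts over all libraries, while the 48 and 124 nt before it held 19.7% and 30.7% and the 143 nt after it 41.3%. Most counts thus lay outside the long segment, and the length neighbours of Ndufv3 were chosen by the annotated CDS that includes it.

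The position of footprints within the CDS was compared because the files give a count for each coding segment; it was examined after the length trend had been seen and is described without a test. In resting TurboID-PSD95 pulldowns relative to inputs, the median log2 ratio of segments of the Nduf genes was -1.36 for segments centred in the first 150 nt, -0.84 from 150 to 300 nt, -0.19 from 300 to 600 nt, 1.15 from 600 to 1000 nt and 1.52 beyond 1000 nt. Segments of all other genes had medians of -1.21, -0.78, -0.20, 0.39 and 0.87 in the same windows. In the first 150 nt, Nduf genes with a CDS under 600 nt and those of 1000 nt or more had like values, with medians of -1.33 and -1.38. Spearman's rho between position and ratio was 0.87 over 189 segments of the 38 genes, which share libraries, and 0.73 over the 66 segments of the 6 long genes.

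Ndufs1 shows this within a gene. Its first coding segment, from 1 to 61 nt, averaged 4.78 CPM in resting TurboID-PSD95 pulldowns against 6.41 CPM in their inputs and 7.05 CPM in the Pan-TurboID inputs, a log2 ratio of -0.49. The second, from 62 to 153 nt, had the lowest ratio of its 18 segments, -1.75 (4.97 CPM against 15.7 and 17.9 CPM). Its last segment, from 2093 to 2184 nt, averaged 16.1 CPM in pulldowns against 4.94 and 6.44 CPM in inputs, a log2 ratio of 1.5. The ratio was negative in the first 7 segments, up to 737 nt, and positive in the 11 after it (0.60 to 1.87). In Ndufv2, the first segment of 51 nt had a ratio of -2.42 and the last segment, from 654 to 747 nt, a ratio of 1.15.

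Over the 6 genes with a CDS of 1000 nt or more, segments centred in the first 300 nt held 33.1% to 65.6% of CDS counts in inputs and 6.54% to 50.3% in pulldowns. The share was lower in the pulldown in all 19 pairs of pulldown and input with the same group and number, and other genes of 1000 nt or more were also lower in 19 of 19 pairs. With Ndufv3 left out of the long Nduf genes, the share was again lower in all 19 pairs. The 3 resting TurboID-PSD95 pulldowns had 17% (95% Wilson interval 16.3% to 17.8%), 22.3% (21.4% to 23.3%) and 12.3% (11.2% to 13.5%). The depolarized TurboID-PSD95 pulldowns had 11.8% (10.9% to 12.8%), 50.3% (49.5% to 51.2%) and 23% (22% to 24.1%). Replicate 2 thus lay far above the other depolarized pulldowns of this bait, and intervals cover counting error only.

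**Figure D3:**
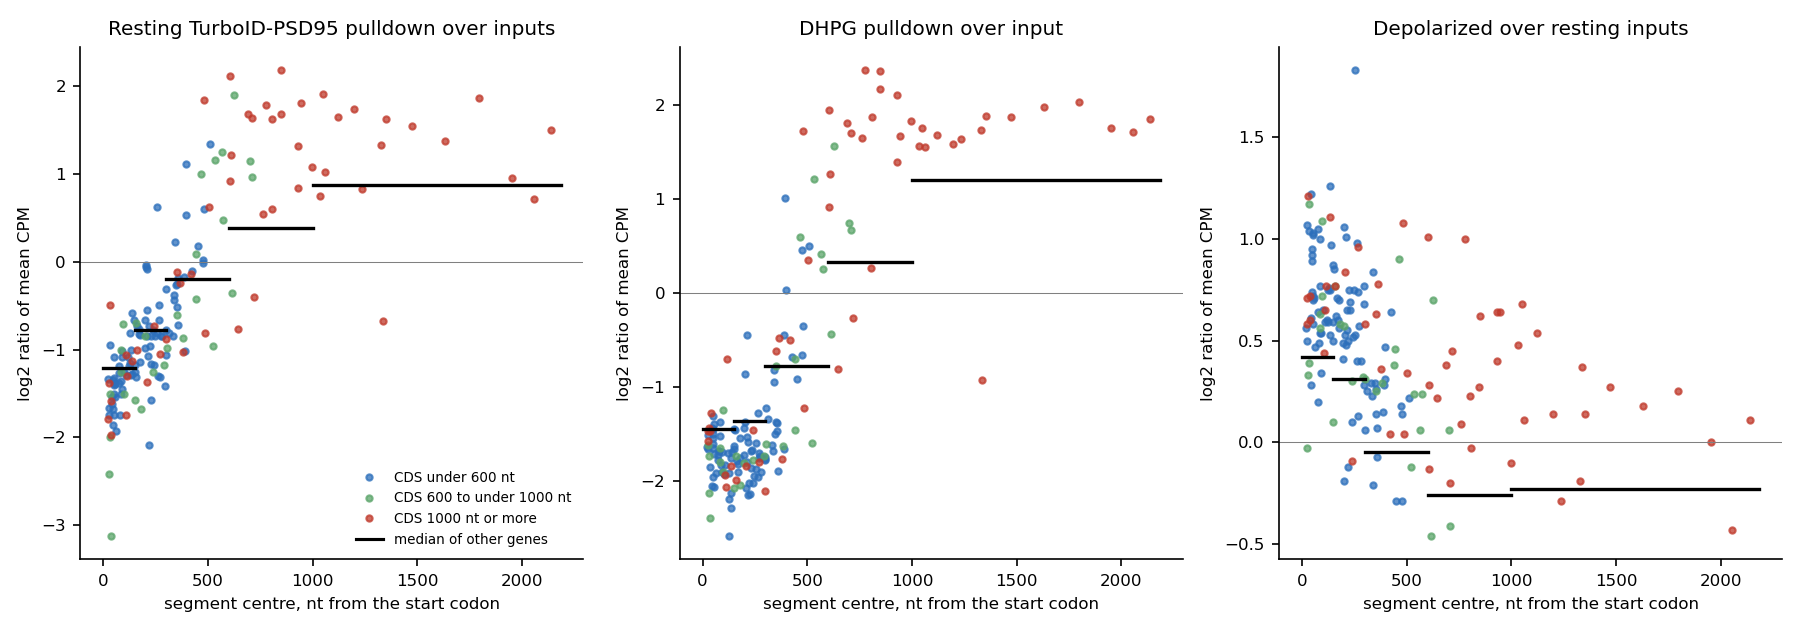
Log2 ratio of mean CPM (y axis) of each coding segment of 37 Nduf genes against the distance of its centre from the start codon (x axis, nt), for resting TurboID-PSD95 pulldowns over inputs, DHPG pulldowns over inputs and depolarized over resting inputs; colours give the CDS length of the gene and black lines the median of segments of other genes in 5 windows. Segments near the start codon lie below 0 in both pulldown panels whatever the length of the gene, and most segments beyond 600 nt lie above 0.

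Pulldowns of Pan-TurboID, which has no localization signal, showed a like pattern. At rest, 15 of the 38 genes were lower and none higher than in Pan-TurboID inputs, with a median log2 fold change of -0.84, where 5.05% of all genes were lower and 4.58% higher. After KCl, 12 were lower and none higher, with a median of -0.81, where 3.7% of all genes were lower and 5.2% higher. Same-numbered libraries of 1 condition deviated together, and with number and condition as a block 30 of the 38 were lower and 3 higher at rest, where 15.1% of all genes were lower and 13% higher in the blocked fit, and 29 were lower and 2 higher after KCl, where 13.8% were lower and 14.2% higher. Without replicate 2 or without replicate 3, none was called in either comparison, without replicate 1, 16 and 6 were called, and with the length trend removed 1, lower, and 0, where 1.45% and 1.22% of all genes were lower and 1.54% and 1.34% higher. Ndufa12 was named in both, at 46.9, 42.2 and 34.8 CPM in resting Pan-TurboID pulldowns against 101, 92.8 and 96.6 CPM in their inputs, without overlap (log2 fold change -1.28 ± 0.241, adjusted p = 0.0138). Ndufa6, which belongs to the LYR proteins that bind the mitochondrial acyl carrier, had 60.2, 61.4 and 73.1 CPM in resting Pan-TurboID pulldowns against 137, 143 and 152 CPM, also without overlap (-1.19 ± 0.268, adjusted p = 0.0192). After KCl, Ndufab1, the acyl carrier itself and a gene with copies, was lower by -1.09 ± 0.294 (adjusted p = 0.0293) and Ndufa4 by -1.14 ± 0.273 (adjusted p = 0.0207).

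The test of the difference between the baits found no Nduf gene for which TurboID-PSD95 pulldowns departed from inputs more or less than Pan-TurboID pulldowns did. With edgeR's quasi-likelihood test 0 of the 38 passed the FDR and 0 had an unadjusted p under 0.05, and the likelihood ratio test and DESeq2 also called 0. Of all genes, 0.00769% were called, and 169 had an unadjusted p under 0.05. The median difference was -0.02 over the 38 genes (-0.22 without replicate 2, with none called), and the smallest p was that of Ndufc1, a small membrane-arm subunit (0.65 ± 0.337, adjusted p = 1).

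After KCl, the depolarized TurboID-PSD95 pulldowns had 16 of the 38 genes lower and 1 higher than the depolarized inputs, and the median log2 fold change was -0.68. Of all genes tested, 6.84% were lower and 11.2% higher. With replicate number and condition as a block, 27 were lower and 1 higher, where 15.9% of all genes were lower and 17.2% higher in the blocked fit. Without replicate 2 there were 25, all lower (median -1.05), without replicate 1 there were 9, and without replicate 3 none. For these fits with a replicate left out, the share of all genes called is not given. Removing the length trend left 1 call, Ndufv3, which was lower, where 4.11% of all genes were lower. The length used for Ndufv3 was that of its annotated CDS. Ndufab1 had 15.3, 45.1 and 15.4 CPM in pulldowns and 50.7 to 66.4 CPM in the 6 inputs, without overlap (-1.12 ± 0.265, adjusted p = 0.00695). Ndufa1 had 54.5, 141 and 94.8 CPM in pulldowns against 164 to 237 CPM in inputs, again without overlap (-1.0 ± 0.257, adjusted p = 0.0109). Ndufs1 had 513, 217 and 352 CPM in pulldowns and 170 to 317 CPM in inputs, so that the groups overlapped, with a log2 fold change of 0.73 ± 0.242 (adjusted p = 0.0383). Replicate 2 had the highest pulldown level of Ndufab1 and Ndufa1 and the lowest of Ndufs1.

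No Nduf gene passed the test of the change in dendritic enrichment with depolarization. By edgeR's quasi-likelihood test, 0 of the 38 and 0% of all genes passed the FDR; 1 of the 38 and 342 of all genes had an unadjusted p under 0.05, and the likelihood ratio test and DESeq2 called 0 of the 38. The median difference was 0.26 for the 38 genes and 0.07 for all genes, and without replicate 2 it was -0.04. The smallest p was that of Ndufc2, a membrane-arm accessory subunit (0.67 ± 0.299, adjusted p = 1, and 0.29 without replicate 2).

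Depolarization itself was examined in the inputs, which hold all footprints. Normalized counts are relative to the other genes of a library, so a change shared by most genes would not show. Higher thus means higher relative to other genes, here and in the other KCl comparisons. The paper reports fewer ribosomes on CDSs and reduced puromycin incorporation after KCl. Of the 38 genes, 18 were higher in depolarized than in resting inputs and none lower, with a median log2 fold change of 0.52, and all 38 fold changes were above 0. Of all genes tested, 6.33% were higher and 9.02% lower, with a median of -0.01. The 18 were 15 accessory subunits, the core subunits Ndufs3 and Ndufs7, and Ndufa4. Without replicate 2, 6 passed, and without replicate 3, 2 passed, with medians of 0.60 and 0.47. Same-numbered inputs of both baits deviated together within a condition, and when each such pair was summed to 1 sample, 3 against 3, 15 of the 38 were higher and none lower, where 3.93% of all genes were higher and 5.6% lower.

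The p-values of single genes for KCl in inputs treat the 6 inputs of a condition as independent. Same-numbered inputs deviated together, so these p-values may be too small. Which genes stayed higher in the summed fit is not given. Ndufa9 had the smallest p. It had 176, 154 and 163 CPM in resting and 366, 303 and 286 CPM in depolarized TurboID-PSD95 inputs, and 172, 178 and 172 CPM in resting and 327, 265 and 344 CPM in depolarized Pan-TurboID inputs. Every depolarized input lay above every resting input, and the log2 fold change was 0.87 ± 0.118 (adjusted p = 7.94e-06). Ndufa10, an accessory subunit of the membrane arm, had 199 to 234 CPM in the 6 resting inputs and 267 to 388 CPM in the 6 depolarized inputs, without overlap (0.55 ± 0.119, adjusted p = 0.00196). Ndufa1 had 93.2 to 111 CPM at rest and 164 to 237 CPM after KCl, without overlap, and its log2 fold change was the highest of the 38, at 0.93 ± 0.201 (adjusted p = 0.00216). The lowest was that of Ndufb10, at 0.07, which did not pass the test.

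Among core subunits, Ndufs7 was higher after KCl by 0.47 ± 0.141 (adjusted p = 0.0229) without overlap, and Ndufs3 by 0.40 ± 0.13 (adjusted p = 0.037) with overlap. The flavin-binding Ndufv1 had 186 to 220 CPM in resting and 184 to 258 CPM in depolarized inputs, overlapping (0.10 ± 0.132, adjusted p = 0.664). Ndufv2 and Ndufs1 also overlapped between conditions, with log2 fold changes of 0.13 ± 0.158 and 0.27 ± 0.202.

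The 200 length neighbours of each Nduf gene had a median of medians of 0.37, with 10.8% higher and 1.67% lower on average, and 33 of the 38 genes lay above their neighbours' median. With the length trend removed, 6 were higher and none lower: Ndufa9 (0.89, adjusted p = 1.03e-05), Ndufs4 (0.54, adjusted p = 0.00353), Ndufa10 (0.56, adjusted p = 0.00418), Ndufa1 (0.47, adjusted p = 0.00598), Ndufa7 (0.48, adjusted p = 0.0072) and Ndufv3 (0.57, adjusted p = 0.0402). In that fit 6.88% of all genes were higher and 6.84% lower. Ndufs4 is an accessory subunit of the N module whose loss causes Leigh syndrome. By position, the median log2 ratio of depolarized to resting inputs was 0.65 for Nduf segments in the first 150 nt, 0.58 from 150 to 300 nt, 0.25 from 300 to 600 nt, 0.23 from 600 to 1000 nt and 0.16 beyond, against 0.42, 0.31, -0.05, -0.26 and -0.23 for segments of other genes.

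**Figure D4:**
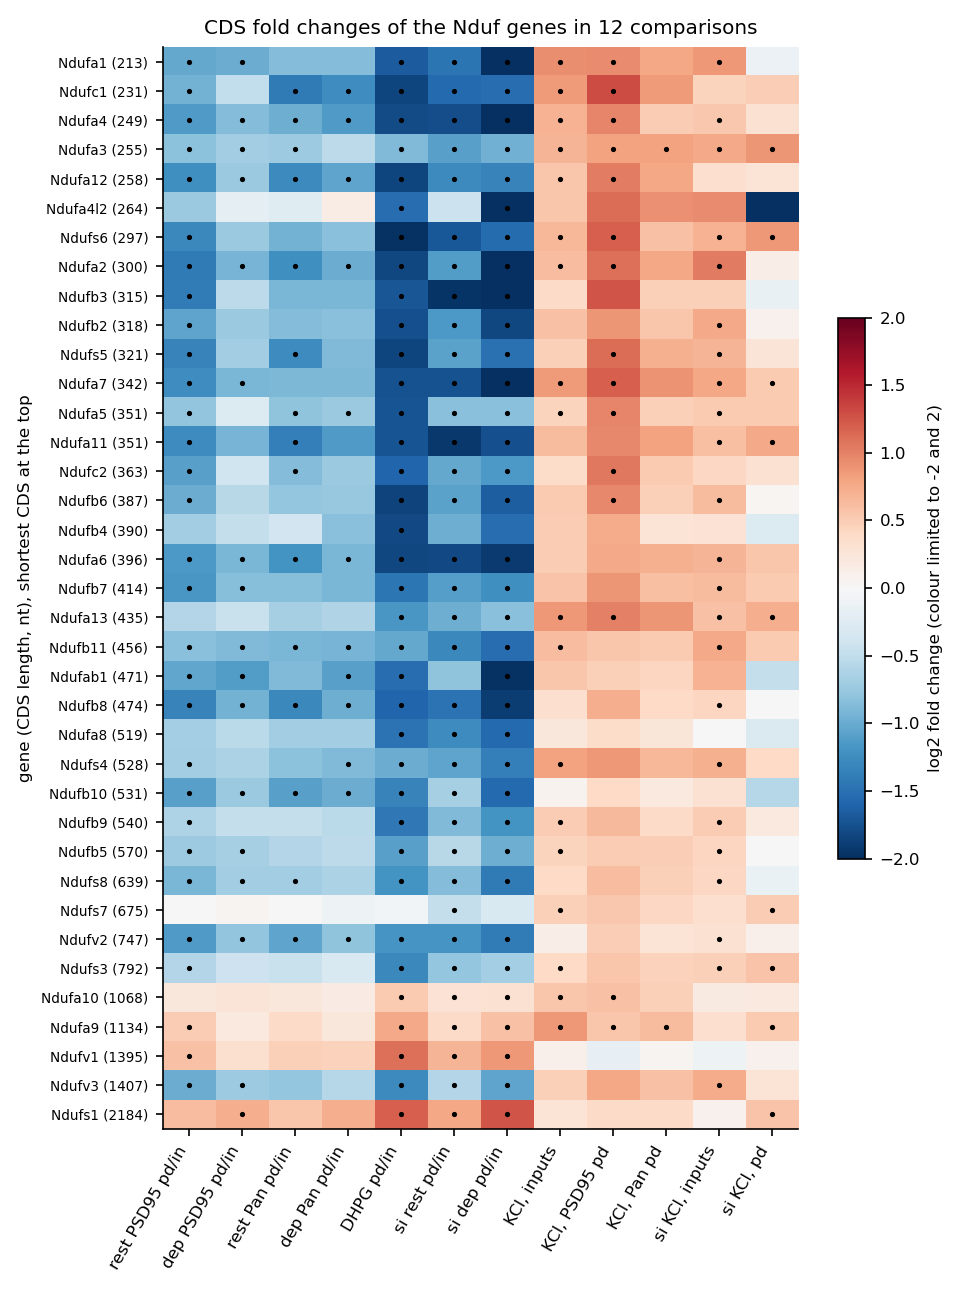
Log2 fold changes of 37 Nduf genes (rows, shortest CDS at the top, CDS length in nt in brackets) in 12 comparisons (columns; pd, pulldown; in, input; si, eIF4G2 siRNA), with colour limited to -2 and 2 and dots where the FDR was passed. Pulldown over input columns are blue for short genes and red for Ndufa10, Ndufa9, Ndufv1 and Ndufs1, and KCl columns are mostly red.

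The KCl response was also examined in the pulldowns. For TurboID-PSD95, the test of the change in dendritic enrichment above is also the test of this response against that of the inputs. It called 0 of the 38 genes, with a median difference of 0.26. For Pan-TurboID pulldowns no such test was run. In each bait's pulldowns, 37 of the 38 fold changes were above 0 and 1 below. In TurboID-PSD95 pulldowns, 15 of the 38 genes were higher after KCl and none lower, with a median log2 fold change of 0.79, where 3.31% of all genes were higher and 3.28% lower. Ndufa5, an accessory subunit of the matrix arm, had 68.4, 54.9 and 84.7 CPM at rest and 99.8, 177 and 121 CPM after KCl, without overlap (0.97 ± 0.22, adjusted p = 0.00748). Ndufa12 had 48.4, 53 and 30.7 CPM at rest and 69.2, 117 and 81.7 CPM after KCl (1.03 ± 0.243, adjusted p = 0.0105), and Ndufc2 44.2, 37.6 and 36 CPM at rest and 53.5, 123 and 62.5 CPM after KCl (1.05 ± 0.248, adjusted p = 0.0106). Replicate 2 was the highest depolarized pulldown for each of these genes. Without replicate 2 none of the 38 passed (median 0.58), nor without replicate 3 (median 0.72), and the length neighbours had a median of 0.62. With the length trend removed, only Ndufa9 passed among the 38 (0.60, adjusted p = 0.0467), where 2.95% of all genes were higher.

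In Pan-TurboID pulldowns, 2 of the 38 genes were higher after KCl and none lower, with a median of 0.51, where 1.87% of all genes were higher and 3.16% lower. Ndufa9 had 244, 232 and 230 CPM at rest and 398, 334 and 364 CPM after KCl, without overlap (0.64 ± 0.166, adjusted p = 0.0213). Ndufa3, a short membrane-arm subunit, had 101, 117 and 94.6 CPM at rest and 152, 185 and 204 CPM after KCl, without overlap (0.81 ± 0.213, adjusted p = 0.0242). With the replicate number as a block 4 were higher, by the likelihood ratio test 4 and by DESeq2 5, where 3.13%, 2.79% and 3.61% of all genes were higher. Without replicate 1, 9 of the 38 were higher, and without replicate 2 or replicate 3 none. The share of all genes higher in these 3 fits is not given, so the 9 cannot be set against it.

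The DHPG and knockdown libraries varied less between replicates than those of the KCl experiment. A chi-square statistic of each pair of replicates, averaged over genes and near 1 where they differ by counting error alone, was 1.48 to 1.89 between DHPG inputs, 2.83 to 8.88 between DHPG pulldowns, 2.81 to 3.07 and 4.55 to 4.65 between knockdown inputs and pulldowns, and 8.61 to 27.8 and 9.92 to 47.5 between inputs and pulldowns of the KCl experiment. Counts of calls and p-values of these experiments thus rest on different spreads and are not compared with each other.

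In DHPG-treated neurons, 32 of the 38 genes were lower and 5 higher in TurboID-PSD95 pulldowns than in inputs, with a median log2 fold change of -1.5. Of all 12259 genes tested in this experiment, 39.3% were lower and 40.5% higher. The 5 higher genes included Ndufa10, Ndufa9, Ndufs1 and Ndufv1, and Ndufs7 was the single gene not called (113, 108 and 118 CPM in pulldowns, 120, 116 and 111 CPM in inputs). Ndufv1 had 489, 445 and 431 CPM in pulldowns against 203, 202 and 218 CPM in inputs, without overlap (1.1 ± 0.0663, adjusted p = 3.81e-11). Ndufs1 had 586, 581 and 493 CPM against 228, 231 and 251 CPM (1.19 ± 0.0734, adjusted p = 4.98e-11). Both were higher in every pulldown than in every input.

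The lower genes with the smallest p were Ndufa4, at 67, 73.1 and 73.2 CPM in DHPG pulldowns against 250, 227 and 248 CPM in inputs (-1.79 ± 0.0712, adjusted p = 2.96e-13), Ndufb6 (-1.85 ± 0.0749), a membrane-arm accessory subunit, and Ndufa6 (-1.82 ± 0.0849). The groups of these 3 genes did not overlap. The length neighbours had a median of medians of -1.44, with 77% lower and 10.1% higher on average. With the length trend removed, 24 of the 38 were lower and 7 higher, with a median of -0.34, where 32.9% of all genes were lower and 34.5% higher in that fit. By position, the medians were -1.69 in the first 150 nt and 1.80 beyond 1000 nt, against -1.44 and 1.20 for segments of other genes.

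Setting DHPG inputs against the resting TurboID-PSD95 inputs of the KCl experiment, 4 of the 38 genes were higher and 5 lower (median -0.13), where 16.3% of all genes were higher and 16.5% lower. Ndufc1 had 87.1, 110 and 82.6 CPM in DHPG inputs and 47.1, 38.3 and 56 CPM in resting inputs, without overlap (0.95 ± 0.182, adjusted p = 0.000834). Ndufb7, a membrane-arm accessory subunit, had 69.9, 67.7 and 65.4 CPM against 90.5, 114 and 105 CPM (-0.64 ± 0.147, adjusted p = 0.00331). Without replicate 2, 4 of the 38 were called. DHPG and experiment cannot be told apart here.

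After siRNA against eIF4G2, most Nduf genes were again lower in pulldowns than in inputs. No test set this difference between pulldowns and inputs against that of the other experiments. At rest, 30 of the 38 genes were lower and 4 higher in pulldowns (median log2 fold change -1.06), where 23.4% of all genes were lower and 22.1% higher. After KCl, 31 were lower and 4 higher, with a median of -1.45, where 24.8% of all genes were lower and 24% higher. The 4 higher genes were Ndufa10, Ndufa9, Ndufs1 and Ndufv1 in both conditions. Ndufs1 had 343 and 339 CPM in resting knockdown pulldowns against 196 and 200 CPM in inputs (0.77 ± 0.0956, adjusted p = 3.29e-07), and 498 and 534 CPM against 215 and 199 CPM after KCl (1.26 ± 0.0988, adjusted p = 1.14e-10). Ndufb8 had 84.6 and 97.8 CPM against 250 and 250 CPM at rest (-1.48 ± 0.115, adjusted p = 1.38e-10) and 94.1 and 90.6 CPM against 334 and 329 CPM after KCl (-1.90 ± 0.12, adjusted p = 2.45e-12). These groups of 2 did not overlap. Without either resting input, 2 of the 38 were higher at rest. With the length trend removed, 4 of the 38 were higher and 9 lower at rest, where 16.1% of all genes were higher and 16.8% lower, and 6 were higher and 14 lower after KCl, where 17.5% were higher and 17.7% lower.

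In knockdown inputs, 23 of the 38 genes were higher after KCl and none lower, with a median of 0.51, where 8.92% of all genes were higher and 10.4% lower. Ndufa2 had 91.4 and 97.6 CPM at rest and 187 and 196 CPM after KCl, without overlap (1.04 ± 0.148, adjusted p = 1.1e-05). Ndufb2 (0.76 ± 0.125) and Ndufa7 (0.78 ± 0.133), both accessory subunits, also had higher values in both depolarized inputs than in both resting inputs. With the length trend removed, 5 were higher, where 8.06% of all genes were higher, and leaving out any 1 input left 9 to 13. In knockdown pulldowns, 9 genes were higher after KCl and none lower (median 0.26), where 10.2% of all genes were higher and 12% lower; they included Ndufs1 (0.57 ± 0.0961), Ndufa3 (0.89 ± 0.159) and Ndufa9 (0.53 ± 0.12).

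The KCl response of TurboID-PSD95 pulldowns was not shown to differ with the knockdown for any Nduf gene. By edgeR's quasi-likelihood test 0 of the 38 passed the FDR, against 0.448% of all genes, 5 of the 38 and 1248 of all genes had an unadjusted p under 0.05, and the likelihood ratio test and DESeq2 called 0 of the 38. The median difference was -0.47, where all genes had -0.01 and the length neighbours had a median of medians of -0.42. Without replicate 2 of the depolarized TurboID-PSD95 pulldowns of the KCl experiment, the median difference of the 38 was -0.16, again with none called. The gene with the smallest p was Ndufa4l2 (adjusted p = 0.385), which had 0 counts in both depolarized knockdown pulldowns and at most 3.08 CPM in the resting ones, so that no fold change is given. Resting knockdown inputs were set against resting TurboID-PSD95 inputs as well: 1 of the 38 genes was lower and none higher (median -0.38), where 2.01% of all genes were lower and 1.89% higher. It was Ndufa12, with 49.3 and 46.4 CPM against 104, 116 and 93.9 CPM, without overlap (-1.14 ± 0.308, adjusted p = 0.0369), a call lost when any 1 knockdown input was left out. Knockdown and experiment cannot be told apart.

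Counts in 5′ UTRs were tested next, scaled by the library sizes of the CDS counts, and 35 of the 38 genes passed the filter on low counts (all but Ndufa3, Ndufa4l2 and Ndufs6). In resting TurboID-PSD95 pulldowns, 30 of the 35 were lower than in inputs and none higher, and the median log2 fold change was -1.75. Of all 10172 genes tested, 61.5% were lower and 0.0393% higher, with a median of -1.59. Ndufb9 (-2.60 ± 0.519, adjusted p = 0.00207), Ndufv3 (-2.31 ± 0.518, adjusted p = 0.00226) and Ndufa11 (-2.06 ± 0.481, adjusted p = 0.0024) had the smallest p and did not overlap between pulldowns and inputs. With library sizes taken from the 5′ UTR counts themselves, or without replicate 3, none of the 35 was called.

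KCl changed no Nduf 5′ UTR count past the FDR. In inputs 0 of the 35 passed by edgeR's quasi-likelihood test, against 0.433% of all genes (median 0.17, 1 with an unadjusted p under 0.05), and the likelihood ratio test and DESeq2 called 0. In TurboID-PSD95 pulldowns 0 passed, against 0.275% of all genes (median 0.71, where all genes had 0.65, with 5 at an unadjusted p under 0.05), and both other tools called 0. Without replicate 2 the median in pulldowns was 0.21 over 34 tested genes, with none called. The smallest p belonged to Ndufs5 in inputs (1.89 ± 0.634, adjusted p = 0.337) and to Ndufb10 in pulldowns (1.28 ± 0.545, adjusted p = 0.312).

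Taking the 38 genes together, the 5′ UTR share is the percentage of their 5′ UTR and CDS counts that lay in 5′ UTRs. It was 17.6%, 23.5% and 21.3% in resting TurboID-PSD95 inputs, 19.1%, 22.1% and 21.3% in resting Pan-TurboID inputs, 17.3%, 20.9% and 15.8% in depolarized TurboID-PSD95 inputs and 17.4%, 18.8% and 15.7% in depolarized Pan-TurboID inputs. The 95% Wilson intervals ran from 23.1% to 23.9% for the highest of these values and from 15.4% to 16% for the lowest. The mean was 20.8% ± 2.12 at rest and 17.6% ± 1.95 after KCl (SD, n = 6 each), a difference of -3.19 points with overlap between conditions (exact two-sided permutation test, p = 0.0195, the smallest possible p being 0.00216). Within TurboID-PSD95 inputs the difference was -2.80 points (exact permutation p = 0.2) and within Pan-TurboID inputs -3.58 points (exact permutation p = 0.1), where 3 against 3 libraries cannot go below 0.1. The 6 inputs of a condition are not 6 independent samples, because same-numbered inputs of both baits deviated together. Averaged by number, the shares were 18.4%, 22.8% and 21.3% at rest and 17.4%, 19.8% and 15.8% after KCl. These overlapped, and the same difference of -3.19 points then had an exact permutation p of 0.2 (smallest possible 0.1). The difference thus passed with the 6 libraries taken as independent and not with same-numbered libraries averaged. Within each number, the share was lower after KCl than at rest. The paper states that resting and activated samples of a biological replicate were processed together. Both permutation tests were unpaired, and no test paired by number was run. Without replicate 3 it was -1.99 points (exact permutation p = 0.2). In the knockdown experiment the share of inputs was 17% and 18.3% at rest and 17.8% and 17.4% after KCl, a difference of -0.0173 points with overlap (exact permutation p = 1, smallest possible 0.333). These shares pool counts, so genes with many 5′ UTR counts weigh most. Ndufa4, not part of complex I, had the most over all libraries (38980, beside 43002 CDS counts). With the shares of single genes averaged instead, inputs of the KCl experiment had means of 20% at rest and 16.9% after KCl. That difference was -3.13 points (exact permutation p = 0.013 with the 6 libraries taken as independent).

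In all other genes together, the mean share was 20.2% in resting and 25% in depolarized TurboID-PSD95 inputs, 20.7% and 22.2% in Pan-TurboID inputs, and 15.7% and 21.4% in knockdown inputs. The difference of this change from that of the Nduf genes was not tested. In pulldowns the Nduf share was 10.6% ± 2.91 at rest and 9.70% ± 3.64 after KCl (n = 6 each), a difference of -0.857 points (exact permutation p = 0.667) that was -1.06 points without replicate 2 (exact permutation p = 0.229). All other genes together had mean shares in TurboID-PSD95 pulldowns of 7.66% at rest and 11.6% after KCl. In Pan-TurboID pulldowns these were 8.33% and 10.2%, and in knockdown pulldowns 6.06% and 6.65%. The Nduf share was lower in the pulldown than in the input in all 19 pairs of the same group and number. The share of all other genes was also lower in the pulldown in every pair.

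**Figure D5:**
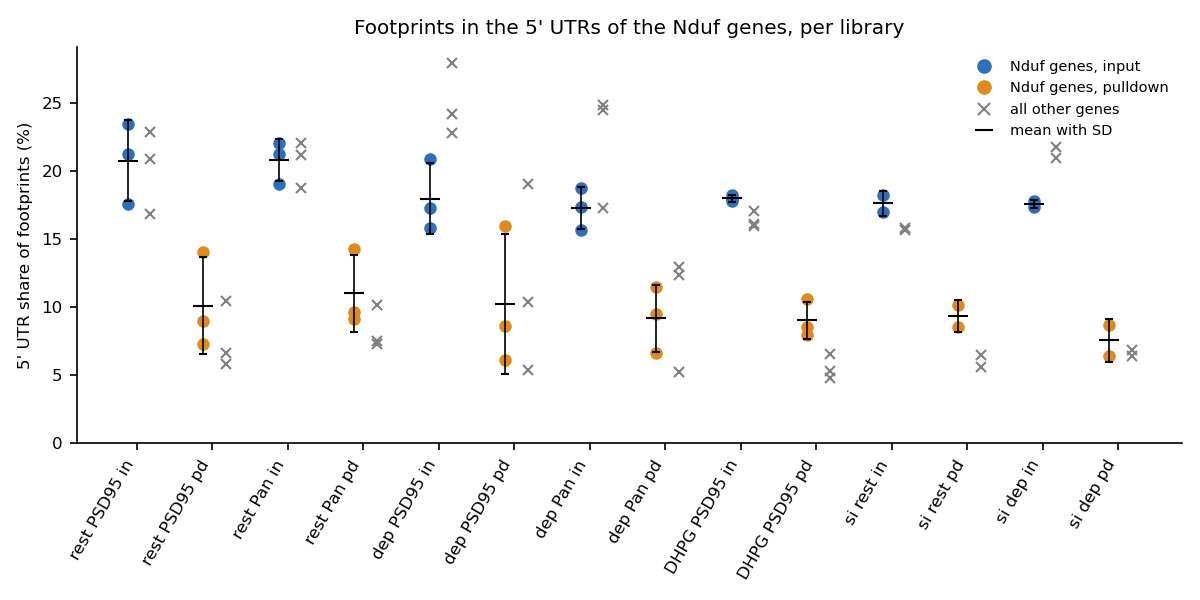
Share of footprints in 5′ UTRs (y axis, percent of 5′ UTR and CDS counts) in each library of the 14 groups (x axis; in, input; pd, pulldown; si, eIF4G2 siRNA); filled points are the 38 Nduf genes together, crosses all other genes together, and bars the mean with SD of the Nduf points. All pulldowns lie below the inputs of the same group and number, and after KCl the mean Nduf share of inputs is lower in the KCl experiment and 17.6% in both conditions of the knockdown experiment, while the mean of the crosses is higher in each.

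Other genes of the pathway were counted in the same fits. Of 17 tested assembly factors, proteins that help to build complex I without staying in it, 4 were lower and none higher in resting TurboID-PSD95 pulldowns (median -0.39), including Dmac1 (-2.0 ± 0.385, adjusted p = 0.00107) and Ndufaf2 (-2.10 ± 0.522, adjusted p = 0.00481), and 1, Foxred1, was higher in depolarized inputs (0.58 ± 0.163, adjusted p = 0.0162). These counts of 4 and 1 stand beside 16.4% of all genes lower in the pulldowns and 6.33% higher in depolarized inputs, and nothing is read from them. In the pulldowns, 1 was higher and 1 lower with the length trend removed. The 7 subunits encoded by mitochondrial DNA had 3 higher and none lower in resting TurboID-PSD95 pulldowns (median 0.93), where 14.7% of all genes were higher, with mt-Nd5 at 1.14 ± 0.36 (adjusted p = 0.0209), none called with the length trend removed (median 1.16), and 2 higher in depolarized inputs (median 0.89), with mt-Nd6 at 1.23 ± 0.333 (adjusted p = 0.0145). In resting knockdown pulldowns all 7 were higher (median 2.17), where 22.1% of all genes were higher and 30 of the 38 nuclear genes lower. Footprints of these 7 come from mitochondrial ribosomes inside the organelle, on which cycloheximide does not act.

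Nuclear-encoded subunits of the other complexes are short as well. In resting TurboID-PSD95 pulldowns, 6 of 9 tested genes of complex III (median -0.93), 11 of 13 of complex IV (-1.15), 11 of 17 of ATP synthase (-0.92) and 1 of 4 of complex II (-0.43, with 1 higher) were lower, and 65 of 85 cytosolic ribosomal protein genes were lower (-1.02) with none higher, where 16.4% of all genes were lower. After removal of the length trend, none of these genes of complexes III and IV, 1 of ATP synthase, none of complex II and 9 ribosomal protein genes were lower, with medians of 0.03, -0.15, -0.02, 0.34 and -0.22, and 1 gene of complex II was higher. In that fit 9.67% of all genes were lower and 10.2% higher, and nothing is read from these counts. In depolarized inputs, 5 of 9 genes of complex III (0.38), 3 of 13 of complex IV (0.48), 8 of 17 of ATP synthase (0.53) and 3 of 4 of complex II (0.53) were higher and none lower, where 6.33% of all genes were higher. Of the ribosomal protein genes, which have near-identical copies and are uncertain, 1 was higher and 3 were lower, with a median of 0.04. With the length trend removed, these medians in depolarized inputs were 0.37, 0.13, 0.19 and 0.39 for complexes III, IV, ATP synthase and II, 0.24 for the 38 Nduf genes and -0.28 for ribosomal protein genes, of which 17 were then lower. Of all genes, 6.84% were lower in that fit.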

How the data were processed

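Ribosome footprints of primary mouse cortical neurons were measured in 38 libraries. The deposited values are raw counts for each coding segment and each 5′ UTR of annotated transcripts; per the study's methods, the authors trimmed reads and molecular identifiers, aligned to mm10 with Rsubread and counted with plastid on UCSC knownGene. Per the file headers, the counts are of 5′ ends of reads of 25 to 100 nt without an offset, from alignments named as free of ribosomal RNA and duplicates. Strand use and treatment of reads aligning to several places are not given in the sources used here.

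Counts of the longest coding transcript of each gene were used (66664 of 67238 transcripts were paired with a GENCODE gene, 574 were left out). Groups came from the labels for virus, fraction and treatment; for DHPG inputs and knockdown libraries the description names the cytosol while the virus field names the PSD95 construct, and the virus field was followed. Tests used edgeR 4.0.16 in R 4.3.3 (quasi-likelihood, TMM, filterByExpr, Benjamini-Hochberg over all genes tested, FDR 0.05), and printed CPM are TMM-normalized over all libraries. The SE of a log2 fold change was derived from its test, as its absolute value divided by the square root of the F statistic. Alternatives were the likelihood ratio test, DESeq2 1.42.0, no low-count filter, the TurboID-PSD95 input alone, other transcripts, removal of the trend with CDS length, replicate blocks and leaving out each replicate. The code was tested on simulated data. Shares were compared by exact permutation over libraries in SciPy 1.17.1, with 95% Wilson intervals for counting error only. Near-identical copies were searched with BLAST 2.17.0, and sequences came from GRCm38.

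Values of 1 gene are not reported here, though it stays in all counts. Genes named were core subunits and, for each comparison, up to 3 higher and 3 lower calls ranked by p whose same-numbered replicates all moved the same way (the lowest p where nothing was called), with the extremes of level, CDS length and fold change. The members and lists were chosen with earlier results of these data known, and the position of footprints, a replicate block within condition and the joining of same-numbered libraries of both baits were chosen after seeing the data. Same-numbered libraries within a condition of the KCl experiment deviated together (correlations of 0.135 to 0.499). Across conditions the correlations were -0.172 to 0.152. Per the study's methods, an input was a part of the monosome fraction used for its pulldown. The pairing across baits was taken from the data and the numbers in the labels. The main tests used neither pairing. The headers place each number of the KCl experiment in a processing folder of its own and all 14 DHPG and knockdown libraries in 1 folder. Replicates are described as biological; where the sources used here do not tie libraries to separate cultures, p-values measure only the spread between these libraries.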

Additional observations from a re-analysis of the deposited data

How the results depend on the processing

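Counts here are of the 38 Nduf genes called (35 for 5′ UTRs), higher and lower together. Apart from the length-trend fits and the block of condition and number, the share of all genes called is mostly not given. A count can then differ because a fit calls more or fewer genes of any kind. For resting Pan-TurboID pulldowns, 5.05% of all genes were lower in the main fit and 15.1% with the block of condition and number. Of the comparisons' values under alternatives, 201 kept their direction and size, 51 moved, 4 lost significance and 1 reversed. For named genes, each combination of gene, comparison and alternative was counted. Of these combinations, 687 kept the call and 77 lost it, none reversing. With the CDS length trend removed, 5 were called in resting and 1 in depolarized TurboID-PSD95 pulldowns over inputs, 1 and 0 in Pan-TurboID pulldowns over inputs, 6 for KCl in inputs, 1 in each bait's pulldowns, 13 and 20 in resting and depolarized knockdown pulldowns and 5 for KCl in knockdown inputs. The replicate block gave 27 for depolarized TurboID-PSD95 pulldowns, 27 and 23 for resting and depolarized Pan-TurboID pulldowns and 4 for KCl in Pan-TurboID pulldowns; the block of bait, condition and number together gave 33 and 31 for Pan-TurboID, and the block of condition and number, chosen after seeing the data, 28, 33 and 31. No other count moved by over 1.5 times with a block. DESeq2 called 25 and 23 in Pan-TurboID pulldowns over inputs and 5 for KCl in Pan-TurboID pulldowns, where the likelihood ratio test called 4 and no low-count filter 1; without the filter 3 differed between knockdown and other resting inputs. 5′ UTR calls fell to 0 with their own library sizes. Within a bait, the KCl difference in 5′ UTR share of inputs was -2.8 and -3.58 points, averaged over same-numbered libraries of both baits, which was chosen after seeing the data, -3.19 points (exact permutation p = 0.2), and that of TurboID-PSD95 pulldowns 0.114 points. Leaving out 1 replicate gave 0 to 30 calls for resting and 0 to 25 for depolarized TurboID-PSD95 pulldowns, 0 to 16 and 0 to 6 for Pan-TurboID, 2 to 20 for KCl in inputs, 0 to 21 and 0 to 9 in pulldowns, 37 to 38 and 4 to 8 for DHPG pulldowns and inputs, 30 to 35 and 34 to 36 for knockdown pulldowns, 9 to 24 and 6 to 10 for KCl under knockdown, 0 to 1 for knockdown against other inputs, 0 to 28 for 5′ UTRs in pulldowns, and shares differing by -4.28 to -1.99 points in inputs and -1.16 to -0.357 in pulldowns. In the knockdown experiment a left-out library leaves 1 sample, assumed to vary like the other groups. The causes were not tested.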

Other observations

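Ndufa4l2, the hypoxia-responsive relative of Ndufa4, had 681 of its 699 CDS counts over all libraries (97.4%) on a coding segment of 61 nt, so that its level rests on a single short stretch.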
